A study of Homo sapiens with 6 samples.

Results

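The caspases and death receptors described here are 8 genes chosen by symbol and read from the 26255 gene rows of 6 RNA-seq libraries. They are the ligand TNFSF10 (TRAIL), the receptors TNFRSF10A, TNFRSF10B and FAS, the initiator caspases CASP8 and CASP10, and the inflammatory caspases CASP1 and CASP4. All 8 had a mean of at least 1 FPKM (fragments per kilobase of transcript scaled to library size) over the 6 libraries, as did 12040 genes in all, and these were tested.

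The libraries came from the established pancreatic cancer line BxPC-3, of human origin, with 2 libraries in each of 3 groups. Parent cells received no treatment, NC-1 cells a negative control treatment, and the remaining cells the microRNA miR-4711-5p, 36 h before collection by the study's account. The study's methods describe transfection of the microRNA and of negative control RNA. Comparisons with Parent therefore also differ by transfection, whose part was not tested. NC-1 is the labels' name for the control. Nothing states that the 2 libraries of a group came from separate cultures, so each p-value measures only the spread between these libraries, which may be technical. The design rests on 1 cell line, and in bulk RNA a change in every cell cannot be told apart from a change in some of them.

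Death ligands such as TRAIL and FAS ligand bind receptors that carry a death domain inside the cell. The adaptor FADD then gathers CASP8 and CASP10, which cut one another into active enzymes and pass the signal to the executioner caspases, such as CASP6. Decoy receptors bind TRAIL without a working death domain, and CFLAR (c-FLIP) occupies the CASP8 platform without its protease activity. CASP1 and CASP4 act in inflammasomes, where they cut gasdermin D. The cytokines IL-1β and IL-18 are substrates of CASP1. Transcript levels say nothing of whether a caspase has been cut.

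All 6 libraries carried the epithelial markers at a summed level of 5277 to 6253 FPKM, while 7 of 8 leukocyte markers, 5 of 6 fibroblast markers and 3 of 4 endothelial markers stayed under 1 FPKM in every library. The summed endothelial list was highest in the NC-1 libraries, at 3.24 and 3.60 FPKM (CDH5 alone reached 3.16), against 1.38 and 1.504 in Parent and 0.673 and 0.775 in miR-4711-5p libraries. The depth is unknown in reads, and relative to the first Parent library it was estimated at 0.751 to 1.21. FPKM summed to 493145 to 550772 over all genes, lowest in the miR-4711-5p libraries. The part of these differences in the results was not tested.

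The mature sequence of miR-4711-5p, taken from RefSeq (GRCh38.p14, chr1:59733269-59733291, minus strand), is shown because the sites searched for here pair with its seed, bases 2 to 8 in capitals. Other kinds of site were not searched.
miR-4711-5p: uGCAUCAGgccagaagacaugag
Sites that match this seed read CTGATGCA (8mer), CTGATGC (7mer-m8) or TGATGCA (7mer-A1). None was found in the canonical 3′ UTR of the 7 members for which the annotation (GENCODE v44 on GRCh37) gives one, nor in any annotated 3′ UTR of the 8 members. Of all tested genes with a canonical 3′ UTR, 17.1% (1810 of 10558) held such a site. The absence says only that these letters are not in these windows.

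TNFSF10 changed the most of the 8 genes in both miR-4711-5p comparisons. It encodes TRAIL, the ligand of the TNFRSF10 receptors (GRCh37, chr3:172223298-172241265, minus strand). It measured 16.1 and 15.9 FPKM in the Parent libraries, 8.91 and 8.94 FPKM in the NC-1 libraries, and 24.7 and 26.0 FPKM in the miR-4711-5p libraries. The groups did not overlap, with NC-1 lowest and miR-4711-5p highest. The mean was 1.58 times that of Parent and 2.84 times that of NC-1.

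On the log2(FPKM + 1) scale, which understates changes of low genes, TNFSF10 was 0.63 ± 0.052 (SE, n = 2 per group) higher than in Parent (limma, adjusted p = 0.000124) and 1.41 ± 0.052 higher than in NC-1 (adjusted p = 5.8e-06). The change against NC-1 was larger in size than that of 98.9% of tested genes. NC-1 itself fell by 0.78 on the log2 scale against Parent (SE 0.052, adjusted p = 0.000419), at 0.557 times the Parent mean. The distance from NC-1 therefore contained a part that was already present between both kinds of control. TNFSF10 was the only member called higher against both controls, as 10.0% of all tested genes were.

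**Figure D1:**
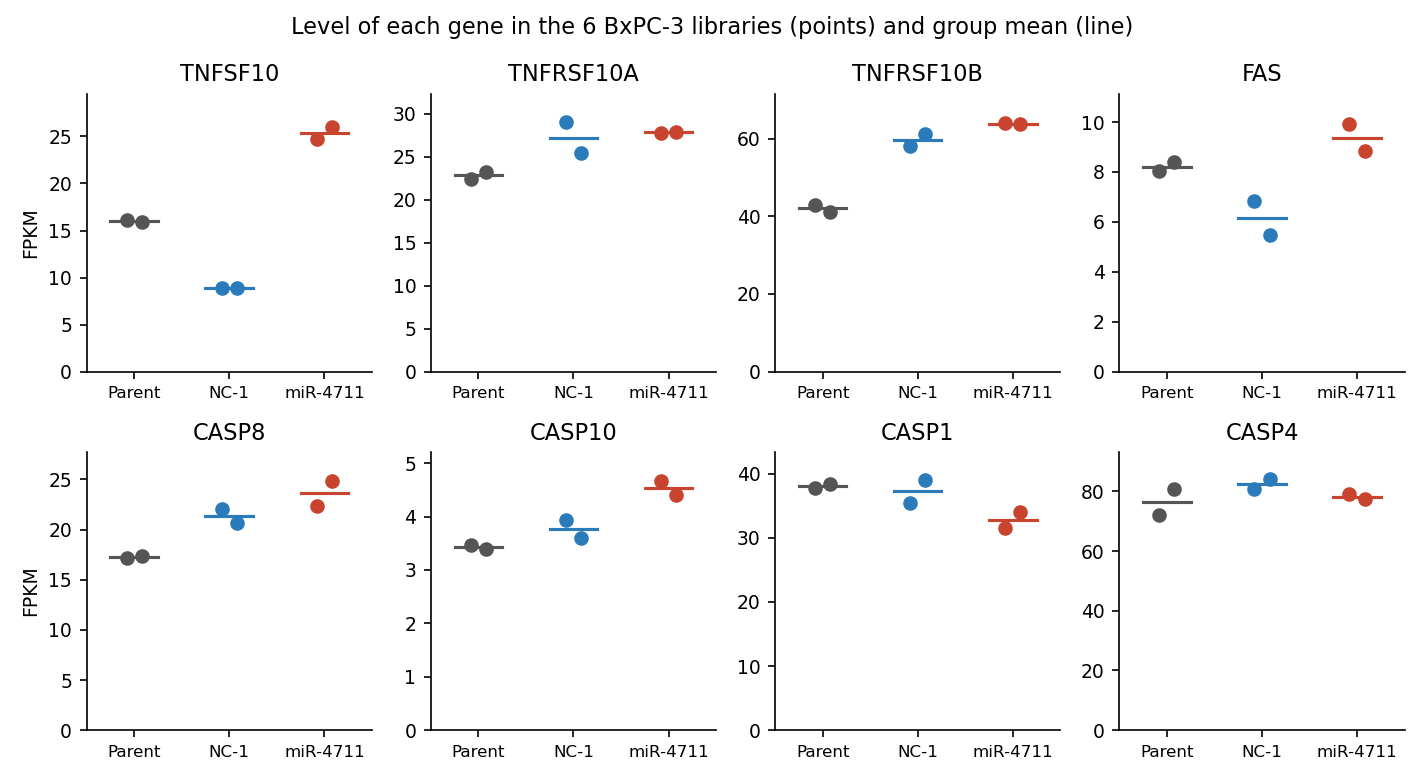
FPKM of the 8 genes (vertical axes from 0, a different scale in each panel) in the 2 Parent, 2 NC-1 and 2 miR-4711-5p libraries, with points for libraries and lines for group means. TNFSF10 lies near 16 FPKM in Parent, near 9 in NC-1 and near 25 in miR-4711-5p libraries, whereas TNFRSF10A, TNFRSF10B and CASP8 are raised over Parent in NC-1 as well as in miR-4711-5p libraries.

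The TNFSF10 promoter is shown because it holds a match to the interferon-stimulated response element, the binding motif of interferon response factors, here searched as GAAANNGAAA on both strands (capitals mark the match, which reads on the opposite strand). TNFSF10 is a known interferon-inducible gene. The stretch is the 250 bases before the RefSeq start, GRCh38.p14 chr3:172523431-172523680, minus strand, and the match spans positions -187 to -178.
TNFSF10 promoter: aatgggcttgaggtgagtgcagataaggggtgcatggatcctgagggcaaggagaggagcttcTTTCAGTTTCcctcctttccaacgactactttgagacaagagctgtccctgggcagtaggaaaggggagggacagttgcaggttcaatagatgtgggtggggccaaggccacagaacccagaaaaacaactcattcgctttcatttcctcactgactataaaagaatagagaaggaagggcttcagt
CASP8 start: catgtgctctgagtttttggTTTCTGTTTC
AIM2 promoter: ttttacagtttctaggccacTTTCTGTTTC
The CASP8 stretch (GRCh38.p14 chr2:201233440-201233469, plus strand) comes from 1 of its 3 start windows, with the match across the start itself. The AIM2 stretch (chr1:159076947-159076976, minus strand) belongs to a DNA sensor described with the inflammasome genes. It was 1 of 3 tested pathway genes with a match, of 38 with a window, and the other two, RIPK1 and CARD8, were not called in any comparison. Of the 8 members, 4 had a RefSeq window, and TNFSF10 and CASP8 held a match while FAS and CASP4 did not. Over all RefSeq windows of 300 bases, 3.57% held one, and 4.38% of genes had one in any window. A match describes letters and not binding.

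Among the genes outside these lists, SNHG9, a small nucleolar RNA host gene, and DKK1, a secreted inhibitor of Wnt signalling, had the profiles nearest to that of TNFSF10. Likeness was the Euclidean distance over the 6 libraries of log2(FPKM + 1) centred on Parent, at 0.327 for SNHG9 and 0.388 for DKK1. SNHG9 averaged 64.3 FPKM in Parent, 42.2 in NC-1 and 110.4 in miR-4711-5p libraries. DKK1 averaged 98, 66.2 and 139.6 FPKM in the same order.

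TNFRSF10B (DR5), a death-domain receptor of TRAIL (GRCh37, chr8:22877646-22926544), measured 42.9 and 41.1 FPKM in Parent, 58.0 and 61.1 FPKM in NC-1, and 64.0 and 63.7 FPKM in miR-4711-5p libraries. Both treated groups lay above Parent, and the miR-4711-5p libraries lay slightly above NC-1. Against Parent it rose by 0.59 ± 0.048 (adjusted p = 0.000113, 1.52-fold) with miR-4711-5p. It also rose by 0.49 ± 0.048 (adjusted p = 0.00127, 1.42-fold) with NC-1. Between miR-4711-5p and NC-1 the difference was 0.10, with a 95% interval of -0.015 to 0.212, and did not pass (adjusted p = 0.145).

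TNFRSF10A (DR4), the other death-domain receptor of TRAIL (chr8:23047965-23082615), measured 22.4 and 23.3 FPKM in Parent, 29.1 and 25.4 FPKM in NC-1, and 27.7 and 27.9 FPKM in miR-4711-5p libraries. The miR-4711-5p libraries fell between both NC-1 libraries. The gene was 0.27 ± 0.069 higher than Parent with miR-4711-5p (adjusted p = 0.0159, 1.22-fold) and 0.24 ± 0.069 higher with NC-1 (adjusted p = 0.0395, 1.19-fold). The first call was lost without the first Parent library or without either miR-4711-5p library, at 0.25 to 0.28. The second was lost without any 1 library other than the second NC-1 library, at 0.15 to 0.27, and with 4 other settings. Against NC-1, miR-4711-5p differed by 0.03 (95% interval -0.128 to 0.194, adjusted p = 0.733).

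The receptors of TRAIL at the membrane include 2 decoys, which lie in the same cluster on chromosome 8. TNFRSF10D, whose death domain is truncated, measured 16.0 and 17.1 FPKM in Parent, 20.1 and 19.3 FPKM in NC-1, and 18.5 and 19.96 FPKM in miR-4711-5p libraries. It rose by 0.21 ± 0.061 with miR-4711-5p (adjusted p = 0.0297) and by 0.24 ± 0.061 with NC-1 (adjusted p = 0.0271), both against Parent. TNFRSF10C, which lacks a death domain, stayed between 0.300 and 0.829 FPKM and was not tested. These receptors resemble one another in sequence, and how reads shared between them were counted is not given in the sources used here.

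TNFRSF10A and TNFRSF10B together made up 79.4% ± 0.92 (SD, n = 2) of the FPKM of the 4 receptors in Parent, 81.1% ± 0.22 in NC-1 and 82.1% ± 0.85 in miR-4711-5p libraries. The exact permutation test gave p = 0.333 for each pair of groups, the smallest that 2 against 2 libraries allow. All 4 receptors lay higher than Parent in both treated groups, and the combined death-domain share differed by at most 2.71 percentage points between group means.

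**Figure D2:**
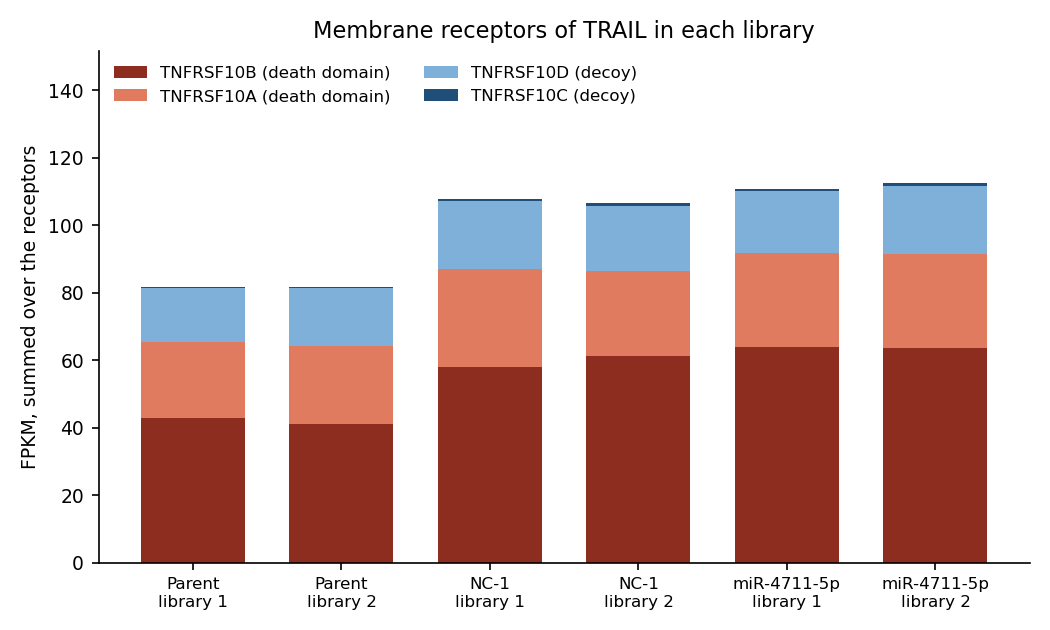
Stacked FPKM (vertical axis from 0) of the death-domain receptors TNFRSF10B and TNFRSF10A and the decoys TNFRSF10D and TNFRSF10C in each of the 6 libraries. The stacks are taller in the NC-1 and miR-4711-5p libraries than in Parent, and the death-domain receptors take 78.7% to 82.7% of each.

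FAS, the receptor of FAS ligand (GRCh37, chr10:90750414-90775542, plus strand), followed the order of TNFSF10 at a smaller size. It measured 8.03 and 8.39 FPKM in Parent, 6.86 and 5.47 FPKM in NC-1, and 9.91 and 8.84 FPKM in miR-4711-5p libraries. The 3 groups did not overlap, and NC-1 was lowest. With miR-4711-5p it was 0.54 ± 0.102 higher than NC-1 (adjusted p = 0.00565, 1.52-fold), while against Parent the difference was 0.17 with a 95% interval of -0.071 to 0.411 (adjusted p = 0.218).

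NC-1 was 0.37 ± 0.102 lower than Parent in FAS (adjusted p = 0.0366, 0.751 of its mean). That call was lost under 8 of 15 other settings, among them without either Parent library, without either miR-4711-5p library or without the second NC-1 library, where the change was -0.23. The gene for its ligand, FASLG, was listed at 0 in 4 libraries and reached at most 0.0604 FPKM. Of the other death ligands, TNF, TNFSF12, TNFSF15 and LTA all stayed under 1 FPKM, so TNFSF10 was the only death ligand among those listed that could be tested.

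CASP8, the initiator that death receptors recruit through FADD (GRCh37, chr2:202098166-202226559, plus strand), measured 17.2 and 17.3 FPKM in Parent, 22.0 and 20.6 FPKM in NC-1, and 22.4 and 24.8 FPKM in miR-4711-5p libraries. Parent was lowest and the treated groups lay close together without overlap. CASP8 rose over Parent by 0.43 ± 0.064 with miR-4711-5p (adjusted p = 0.0018, 1.37-fold) and by 0.29 ± 0.064 with NC-1 (adjusted p = 0.0173, 1.24-fold). The latter call was lost without either Parent library or the first NC-1 library, at 0.25 to 0.30. The difference between miR-4711-5p and NC-1 was 0.14, with a 95% interval of -0.012 to 0.291 (adjusted p = 0.126).

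CASP10, the closest relative of CASP8 and its neighbour (chr2:202047595-202094151), had the lowest level of the 8 genes in every group. It measured 3.48 and 3.40 FPKM in Parent, 3.94 and 3.60 FPKM in NC-1, and 4.67 and 4.41 FPKM in miR-4711-5p libraries. The miR-4711-5p libraries were above all others. The rise over Parent was 0.32 ± 0.079 (adjusted p = 0.015, 1.32-fold), and the call was lost without the second Parent library or without either miR-4711-5p library, at 0.29 to 0.35. The difference from NC-1 was 0.22 (95% interval 0.031 to 0.402) and missed the threshold (adjusted p = 0.0646), and that between NC-1 and Parent was 0.10 (adjusted p = 0.364).

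CFLAR lies beside CASP10 and CASP8 on chromosome 2 and was not called in any comparison. It measured 13.1 and 14.2 FPKM in Parent, 12.9 and 14.0 FPKM in NC-1, and 15.2 and 14.4 FPKM in miR-4711-5p libraries. The ratio of CFLAR to CASP8 FPKM averaged 0.794 ± 0.040 (SD, n = 2) in Parent, 0.632 ± 0.065 in NC-1 and 0.630 ± 0.072 in miR-4711-5p libraries. Both treated groups lay below Parent (exact permutation p = 0.333, the smallest possible here) and overlapped each other (exact permutation p = 1).

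CASP1, the caspase of canonical inflammasomes (GRCh37, chr11:104896124-104905977, minus strand), was the only member to fall with miR-4711-5p against Parent. It measured 37.7 and 38.3 FPKM in Parent, 35.4 and 39.0 FPKM in NC-1, and 31.6 and 33.9 FPKM in miR-4711-5p libraries. The miR-4711-5p libraries were the 2 lowest, and Parent and NC-1 overlapped. The change was -0.21 ± 0.063 against Parent (adjusted p = 0.0315, 0.861 of its mean), a call lost under 7 of 15 other settings, among them without either Parent library or either miR-4711-5p library, at -0.26 to -0.16.

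Against NC-1, CASP1 differed by -0.18 (95% interval -0.326 to -0.030) and missed the threshold (adjusted p = 0.0588), though it passed under 3 of 15 other settings, among them a filter at a mean of 5 FPKM and leaving out the first NC-1 library, at -0.25. NC-1 against Parent gave -0.03 (adjusted p = 0.737). CARD16, whose sequence nearly repeats the CARD of CASP1 and which lies beside it on chromosome 11, was level at 16.6 to 18.3 FPKM and was not called. Reads that fit both genes could be split between them, so the CASP1 value carries that uncertainty.

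CASP4, which binds lipopolysaccharide inside the cell (chr11:104813593-104840093, minus strand), had the highest level of the 8 genes and was not called in any comparison. It measured 72.0 and 80.8 FPKM in Parent, 80.8 and 84.1 FPKM in NC-1, and 79.2 and 77.3 FPKM in miR-4711-5p libraries. The Parent libraries spanned the values of the miR-4711-5p libraries. The differences were 0.04 against Parent (95% interval -0.107 to 0.180) and -0.08 against NC-1 (95% interval -0.218 to 0.069). CASP5 and CASP12, of the same chromosome 11 cluster, were at or near 0.

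In Parent cells the order of levels was CASP4, TNFRSF10B, CASP1, TNFRSF10A, CASP8, TNFSF10, FAS and CASP10, from 76.4 down to 3.44 FPKM. FPKM is a level per length, and no neighbours in this order overlapped between their 2 libraries. The order was the same in NC-1 cells. In miR-4711-5p cells TNFSF10 (25.4 FPKM) passed CASP8 (23.6 FPKM), and those were the only neighbours whose libraries overlapped.

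**Figure D3:**
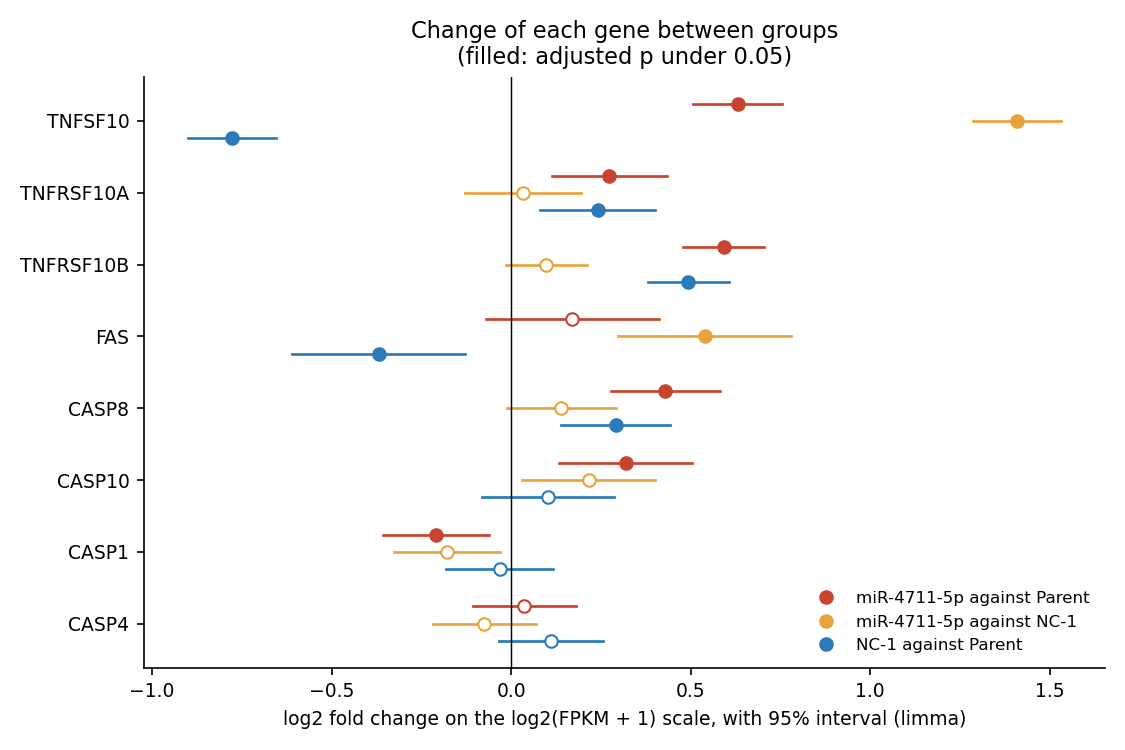
log2 fold change on the log2(FPKM + 1) scale (horizontal axis) of the 8 genes in the 3 comparisons, with limma's 95% intervals and filled points where the adjusted p was under 0.05. TNFSF10 and FAS lie on opposite sides of 0 in NC-1 and miR-4711-5p cells against Parent, and TNFRSF10A, TNFRSF10B and CASP8 lie on the same side.

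Counted together, 6 of the 8 genes were called with miR-4711-5p against Parent, where 43.4% of all tested genes were called. Of these, 5 were higher, against 18.7% of tested genes, and 1 was lower, against 24.7%. Without either miR-4711-5p library the count was 3. Against NC-1, 2 of the 8 were called, both higher, where 39.6% of tested genes were called (18.4% higher and 21.2% lower). The members' share, 25%, lay below that of all tested genes.

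NC-1 against Parent called 5 of the 8, where 27.2% of tested genes were called. TNFRSF10A, TNFRSF10B and CASP8 were higher, as were 12.1% of tested genes, and TNFSF10 and FAS were lower, as were 15.1%. Without 1 library that count was 2 to 4, with 2 for either Parent library and 3 for the first NC-1 library or either miR-4711-5p library. The median log2 fold change of the 8 was 0.30, 0.12 and 0.11 for miR-4711-5p against each control (Parent, then NC-1) and for NC-1 against Parent, where that of all tested genes was -0.01, 0.00 and -0.01. The comparisons share libraries and are not independent.

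The other genes of these pathways were taken from a list of 66, of which 50 passed the filter. With miR-4711-5p, 23 were called against Parent (10 higher, 13 lower) and 21 against NC-1 (8 higher, 13 lower). The shares, 46% and 42%, lay near those of all tested genes (43.4% and 39.6%). Without the first miR-4711-5p library the counts were 14 and 13. In the same direction against both controls, 5 were higher and 11 were lower, where 10.0% and 15.4% of all tested genes were. NC-1 against Parent called 15 (8 higher, 7 lower), and fewer without the first Parent library or without the first NC-1 library. That share, 30%, lay near the 27.2% of all tested genes.

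Of the other caspases, 3 of the 6 listed were tested, and 2 of these fell against both controls. CASP2, a caspase activated by genotoxic stress, measured 24.3 and 22.6 FPKM in Parent, 21.7 and 21.8 FPKM in NC-1, and 15.4 and 15.7 FPKM in miR-4711-5p libraries. The miR-4711-5p libraries lay below all others. It was 0.56 ± 0.054 lower than Parent (adjusted p = 0.000251) and 0.46 ± 0.054 lower than NC-1 (adjusted p = 0.000702).

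CASP6, an executioner that cuts lamins, measured 12.1 and 12.6 FPKM in Parent, 12.1 and 11.3 FPKM in NC-1, and 9.31 and 10.1 FPKM in miR-4711-5p libraries. It was 0.32 ± 0.065 lower than Parent (adjusted p = 0.00711) and 0.25 ± 0.065 lower than NC-1 (adjusted p = 0.02). CASP9, the initiator of the mitochondrial route, was not called against either control.

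The apoptosome list held the largest fall against NC-1 among the tested pathway genes. APAF1, the scaffold that activates CASP9, measured 3.92 and 3.95 FPKM in Parent, 4.45 and 4.50 FPKM in NC-1, and 1.99 and 1.98 FPKM in miR-4711-5p libraries. It was 0.73 ± 0.076 lower than Parent (adjusted p = 0.000372) and 0.88 ± 0.076 lower than NC-1 (adjusted p = 0.000183), with no overlap. Its canonical 3′ UTR holds a 7mer-A1 site of miR-4711-5p at GRCh37 chr12:99126626-99126632, capitals in the line that follows.
APAF1 site: aaattctgtctTGATGCAttcaaaatggt
BIRC3 site: atctctgcattCTGATGCtgggagactta
The BIRC3 site is a 7mer-m8 (chr11:102209753-102209759) and is shown because that gene moved the opposite way.

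BIRC3 (cIAP2), a ubiquitin ligase that holds back cell death from TNF receptors, measured 2.30 and 2.46 FPKM in Parent, 6.24 and 6.18 FPKM in NC-1, and 7.65 and 8.001 FPKM in miR-4711-5p libraries. Most of its rise was shared with NC-1. It was 1.39 ± 0.069 higher than Parent (adjusted p = 1.35e-05) and 0.29 ± 0.069 higher than NC-1 (adjusted p = 0.0142). BIRC5 (survivin), also a mitotic gene, fell by 0.56 against Parent and by 0.21 against NC-1 on the log2 scale. NC-1 itself was 0.35 below Parent in BIRC5 (adjusted p = 0.00281). HTRA2, a mitochondrial protease, fell by 0.32 against Parent and by 0.25 against NC-1. XIAP, DIABLO and CYCS were not called.

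Seed sites stood in the canonical 3′ UTR of 7 of the 49 tested pathway genes that have one, where 17.1% of all tested genes with one held a site. The 7 were CFLAR, FAF1, BIRC3, APAF1, CYCS, DFFB and ROCK1. Of the 7, only APAF1 was lower against both controls, while BIRC3 was higher against both and DFFB was higher against NC-1 (0.52, adjusted p = 0.0039). CFLAR and CYCS, with an 8mer each, were not called, nor were FAF1 and ROCK1. These canonical sites stood in 1 of 11 annotated 3′ UTRs for CFLAR, 1 of 3 for CYCS and 1 of 2 for ROCK1. For BIRC3 it was 2 of 4, for APAF1 5 of 8, and for FAF1 and DFFB all of them. FPKM is given per gene, and which transcripts these cells carried was not tested. Counting any annotated 3′ UTR, 10 tested pathway genes held a site, which adds CYLD, BIRC5 and NLRP1. Of those added, BIRC5 was lower against both controls, CYLD was higher against Parent, and NLRP1 was not called in either miR-4711-5p comparison. PYCARD, CASP2 and RIPK3, all lower against both, held no site in any annotated 3′ UTR.

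Among the adaptors, 2 of 11 were called against both controls, in opposite directions. FADD, the link between receptor and CASP8, measured 34.9 and 35.4 FPKM in Parent, 29.6 and 31.2 FPKM in NC-1, and 40.8 and 39.7 FPKM in miR-4711-5p libraries. It kept the order of TNFSF10 and FAS, at 0.39 ± 0.049 above NC-1 (adjusted p = 0.000863) and 0.19 ± 0.049 above Parent (adjusted p = 0.0171). RIPK3, the kinase of necroptosis, averaged 0.50 ± 0.096 lower than NC-1 (adjusted p = 0.00585) and 0.38 lower than Parent (adjusted p = 0.0164). TRADD and DAXX were not called.

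Of the other death receptors and decoys, TNFRSF1A, the main TNF receptor, rose by 0.26 over NC-1 (adjusted p = 0.00254) and by 0.16 over Parent (adjusted p = 0.0192). The soluble decoy of FAS ligand, TNFRSF6B, is named after its values were seen. It measured 165 and 149.2 FPKM in Parent, 245.3 and 240.9 FPKM in NC-1, and 177.1 and 168.9 FPKM in miR-4711-5p libraries. The NC-1 libraries stood above all others (0.63 over Parent, adjusted p = 0.00101), and miR-4711-5p was lower than NC-1 by 0.49 (adjusted p = 0.000641). This gene overlaps a read-through transcript of RTEL1, so its reads may be shared. TNFRSF21, TNFRSF25 and the soluble TRAIL decoy TNFRSF11B were not called.

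Of 9 tested substrates of caspases, 4 were called lower against Parent and 0 higher. Against NC-1, 2 were lower and 3 higher. The largest falls against Parent were those of LMNA (-0.56, adjusted p = 0.000302) and PARP1 (-0.44, adjusted p = 0.00131), neither of them called against NC-1. DFFA (0.34), DFFB (0.52) and DFNA5 (0.34) rose over NC-1 and were not called against Parent. LMNA, PARP1 and DFNA5 are named after their values were seen. BID, which CASP8 cuts to reach mitochondria, fell by 0.26 against NC-1 (adjusted p = 0.0138) and by 0.30 against Parent (adjusted p = 0.00719). SPTAN1, a spectrin of the membrane skeleton, fell by 0.13 against NC-1 (adjusted p = 0.037) and by 0.26 against Parent (adjusted p = 0.00247). GSDMD, the pore-forming protein that CASP1 and CASP4 cut, measured 20.4 to 24.9 FPKM over the 6 libraries and was not called.

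The inflammasome list was split. PYCARD (ASC), the adaptor that joins sensors to CASP1, measured 31.2 and 34.8 FPKM in Parent, 26.6 and 30.7 FPKM in NC-1, and 15.8 and 16.1 FPKM in miR-4711-5p libraries. It was 1.002 ± 0.080 lower than Parent (adjusted p = 0.000103) and 0.80 ± 0.080 lower than NC-1 (adjusted p = 0.000326), with no overlap. AIM2, a sensor of cytosolic DNA, measured 6.71 and 4.94 FPKM in Parent, 4.93 and 5.85 FPKM in NC-1, and 12.9 and 13.0 FPKM in miR-4711-5p libraries.

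AIM2 was 1.047 ± 0.127 higher than Parent (adjusted p = 0.000711) and 1.13 ± 0.127 higher than NC-1 (adjusted p = 0.000563). Its neighbour IFI16, another DNA sensor, was 0.43 higher than NC-1 (adjusted p = 0.000345) and 0.41 higher than Parent (adjusted p = 0.000352). IL18, a substrate of CASP1, fell by 0.61 against Parent (adjusted p = 0.000236) and by 0.20 against NC-1 (adjusted p = 0.0298). IL1B, which encodes the substrate IL-1β, is named after its values were seen. It differed by 0.02 from Parent (adjusted p = 0.736) and was 0.24 lower than NC-1 (adjusted p = 0.00802). CARD6 fell by 0.42 against NC-1 (adjusted p = 0.00118). NLRP3, NLRC4, NLRP6 and MEFV, sensors typical of myeloid cells or gut, were near 0. NAIP, which has near-identical copies, and CARD8 were not called.

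**Figure D4:**
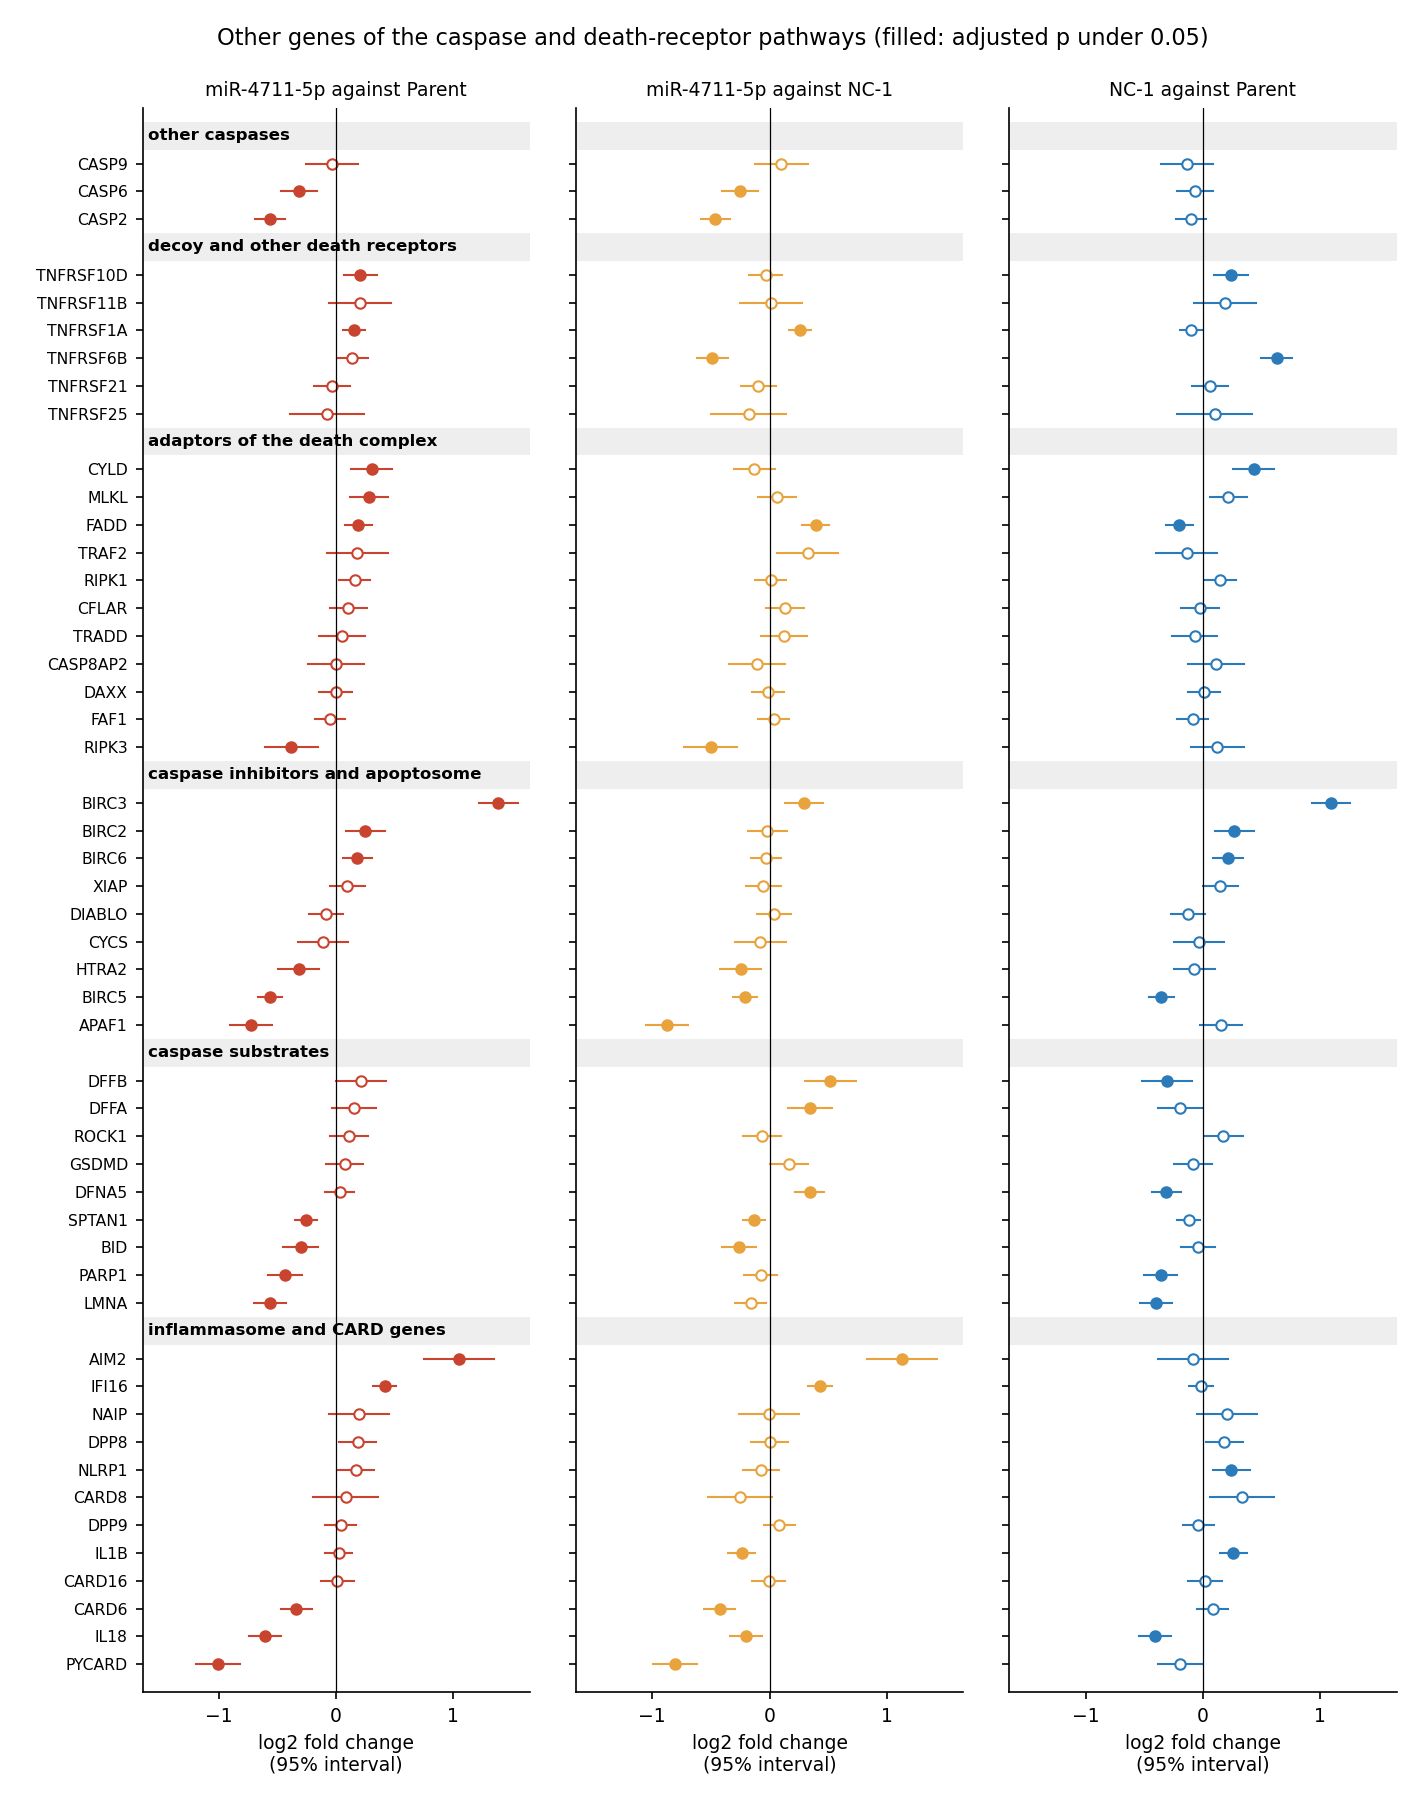
log2 fold change (horizontal axes, 95% intervals from limma) of the 50 tested pathway genes in the 3 comparisons, in 6 groups and ordered within each by the change against Parent. BIRC3 and AIM2 are farthest to the right and PYCARD and APAF1 farthest to the left in miR-4711-5p against Parent, and the change of BIRC3 is also present in NC-1 against Parent.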

How the data were processed

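Strand-specific mRNA libraries of BxPC-3 cells (2 Parent, 2 NC-1, 2 miR-4711-5p) were sequenced single-end. The authors aligned reads to hg19 and deposited FPKM per gene symbol, computed with Cuffnorm by the study's methods. The submitters' processing notes list TopHat2 2.1.1, Bowtie2 2.3.5.1, SAMtools 1.2, Cufflinks 2.2.1 and Cuffdiff without a version. The versions of TopHat2, Bowtie2 and SAMtools differ from those in the study's methods. The annotation, strand option and scaling of Cuffnorm are not given in the sources used here. FPKM are relative values, and the number of reads is unknown.

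From the deposited FPKM, log2(FPKM + 1) of 12040 genes whose mean reached 1 FPKM was fitted with limma 3.58.1 (R 4.3.3, eBayes with a trend), with all 3 groups in 1 fit (3 residual and 4.15 prior degrees of freedom) and Benjamini-Hochberg adjustment at 0.05, two-sided. Fold values are ratios of mean FPKM. Single values were compared with exact permutation tests (two-sided, smallest p 0.333). In simulated data for miR-4711-5p against Parent with 200 of 12040 genes changed, 44.8% of changes of 0.4 and 88.9% of changes of 0.8 (log2) were recovered, and 4.47% of calls were false. The simulation drew normal noise from limma's own fitted spread and changed far fewer genes than the 43.4% called in the data. These rates therefore check the procedure under its own assumptions and need not hold for the data.

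Every member was named. Of the pathway lists, genes called the same way against both controls were named, up to 5 a list by their change against NC-1, with up to 3 that were not called. The members and lists were chosen with earlier results of these data known, so no list received a test of its own. Seed sites were searched in GENCODE v44 transcripts lifted to GRCh37, and promoter motifs in RefSeq windows (GRCh38.p14) from 250 bases before to 50 after a start. TNFRSF10A, TNFRSF10B, CASP1 and CASP10 had no promoter entry. Some listed pathway genes are not reported here and are left out of the list counts. Other settings covered the pseudocount (0.1), the filter (none or 5 FPKM), scaling, the fit and leaving out each library. Python 3.11.15 was used for the remaining steps.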

Additional observations from a re-analysis of the deposited data

Results flagged for a closer look

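In 8 of the members and tested pathway genes, every NC-1 library lay on 1 side of Parent and every miR-4711-5p library on the other, and miR-4711-5p differed from NC-1 by limma's test. The share of all tested genes with this pattern was not counted, so the 8 cannot be read as particular to these pathways. Against NC-1, 39.6% of all tested genes were called. The log2 differences (miR-4711-5p minus NC-1) were 1.41 for TNFSF10 (adjusted p = 5.8e-06), 0.54 for FAS (adjusted p = 0.00565) and 0.39 for FADD (adjusted p = 0.000863), with miR-4711-5p above Parent. TNFRSF1A (0.26, adjusted p = 0.00254), DFFA (0.34, adjusted p = 0.013) and DFFB (0.52, adjusted p = 0.0039) had the same order. APAF1 (-0.88, adjusted p = 0.000183) and CARD6 (-0.42, adjusted p = 0.00118) had the opposite order, with NC-1 highest. The rule places Parent between the other groups, so a larger change against NC-1 than against Parent follows from the rule and is not a result. Of the 8, only TNFSF10 and FADD differed from Parent past the threshold in both treated groups.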

How the results depend on the processing

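Of 357 recomputed log2 fold changes of the 8 members, 316 kept their direction and their side of the threshold, 33 lost the call and 4 gained it. In the remaining 4 a value near 0 that was not called in either case changed sign. Leaving out 1 library, CASP4 for miR-4711-5p against Parent ranged from -0.046 (without the first Parent library) to 0.119, TNFRSF10A for miR-4711-5p against NC-1 from -0.062 (without the second NC-1 library) to 0.128, and CASP1 for NC-1 against Parent from -0.101 to 0.038 (without the first NC-1 library). CASP1 was also 0.036 with quantile normalization. TNFSF10 kept its call in all 3 comparisons under each of 15 settings, as did TNFRSF10B and CASP8 for miR-4711-5p against Parent, TNFRSF10B for NC-1 against Parent and FAS for miR-4711-5p against NC-1. The median-of-ratios scaling over genes above 0, chosen after seeing the data, had factors of 1.006 to 1.007 in all libraries and left 6, 2 and 5 members called. Requiring a ratio of at least 1.5 as well left 2 members, 6 pathway genes and 1490 genes in all for miR-4711-5p against Parent, 5 pathway genes and 1295 genes against NC-1, and 1 member, 2 pathway genes and 501 genes for NC-1 against Parent. In that last comparison 3 members were called with no filter on low values (2165 genes in all), with only the 2 groups compared, or without a trend. Leaving out 1 library, where a lone library was assumed to vary like the other groups, gave 3 to 6 members, 14 to 24 pathway genes and 3246 to 5185 genes for miR-4711-5p against Parent, 2 to 3 members, 13 to 22 pathway genes and 2887 to 4679 genes against NC-1, and 2 to 4 members, 9 to 13 pathway genes and 1457 to 2385 genes for NC-1 against Parent. Apart from these settings, whose construction uses fewer samples or a stricter rule, the cause of a lost call was not tested. CASP10 has no value at a filter of 5 FPKM. Replicate numbers did not pair libraries (correlations of deviations 0.061, 0.003 and -0.009), and with the replicate number as a block (replicate block) 6, 3 and 4 members and 4983, 4564 and 2864 genes were called in the 3 comparisons, the added member being CASP1 against NC-1.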
